A study of Mus musculus with 4 samples.

Results

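The genes described here are S100a8, S100a9, Camp, Ngp and Retnlg, 5 of the 32245 gene symbols counted in single cells of the mouse gum. They were chosen by symbol as calprotectin and neutrophil granule genes, and all 5 were found in the matrices of all 4 libraries. The question put to the data was which cells held their RNA, how many such cells each library had, and how high the genes stood in them.

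S100a8 and S100a9 encode the subunits of calprotectin, a protein complex that binds calcium, zinc and manganese, fills the cytosol of neutrophils and is made by stressed or wounded epithelium. In the gum, calprotectin released into the fluid around the teeth is a long-used sign of periodontal inflammation. Camp encodes the cathelicidin antimicrobial peptide and Ngp the neutrophilic granule protein, cargo of the specific granules that mouse neutrophil precursors fill in the bone marrow. Retnlg encodes resistin-like gamma, a secreted protein of mouse neutrophils.

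The libraries were 10x Genomics single-cell RNA of enzyme-dissociated gum cut from the upper jaw of mice, made in a study of metformin, a drug used against diabetes, in periodontal disease. There were 4 groups of 1 library, namely disease plus metformin, disease, metformin alone and healthy. Strain, age, the way disease was brought about, the metformin dose and the number of mice behind a library are not given in the sources used here. Each group being a single library, differences between groups have no replicate check, and no p-value is given. Every interval below is a 95% interval for counting error only, treats each UMI (a counted RNA molecule) as independent and is too narrow where few cells held most of a gene.

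After filtering there were 1657 cells in the disease plus metformin library, 1693 in disease, 2477 in metformin and 1307 in healthy, with median depths between 1715 and 1951 UMIs per cell. Over all pairs of libraries 8 barcode sequences recurred before filtering and 4 among the kept cells, and none of them belonged to the cells described below as the main sources. Keratinocyte-like cells made up 42.7%, 63.7%, 50.7% and 54.2% of the disease plus metformin, disease, metformin and healthy libraries. Leukocyte clusters held 32, 53, 31 and 25 cells in the same order. No doublet caller was run and no doublet was removed. The tissue label was met by keratinocytes, and gland-like cells numbered 1379 over all libraries. By library they numbered 517 in disease plus metformin, 235 in disease, 285 in metformin and 342 in healthy. An unnamed cluster led by Dcpp2, with gland and keratinocyte markers raised, had 267, 3, 648 and 96 cells in that order. The part of this makeup in levels over whole libraries was not tested.

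In the GENCODE annotation of GRCm38, S100a8 spans chr3:90668978-90670035 on the plus strand and S100a9 spans chr3:90692632-90695721 on the minus strand, with 22.6 kb between them and at most 3 exons in a transcript of each. Camp (chr9:109847379-109849617, minus strand) and Ngp (chr9:110419747-110423012, plus strand) are 570.1 kb apart, and Retnlg lies at chr16:48872621-48874496 on the plus strand; these 3 genes have 4 exons each. Nearly all Camp and Ngp UMIs lay in another neutrophil-like cluster than nearly all Retnlg UMIs, and S100a8 and S100a9 were found in both. Stretches ahead of 4 of the starts are therefore shown, from the RefSeq promoter table on GRCm38.p6. They end before the first base that either annotation counts as transcribed, at chr3:90668821-90668977 for S100a8, chr3:90695722-90695971 for S100a9, chr9:110419558-110419746 for Ngp and chr16:48872358-48872607 for Retnlg. Each is read in the direction of its gene. Capitals mark matches to a C/EBP motif (TTNCNNAA) or a PU.1 motif (GAGGAA), 2 factors of granulocyte genes, on either strand.
S100a8: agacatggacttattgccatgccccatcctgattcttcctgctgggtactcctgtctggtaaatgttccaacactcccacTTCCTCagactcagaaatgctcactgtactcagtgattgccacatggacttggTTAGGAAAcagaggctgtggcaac
S100a9: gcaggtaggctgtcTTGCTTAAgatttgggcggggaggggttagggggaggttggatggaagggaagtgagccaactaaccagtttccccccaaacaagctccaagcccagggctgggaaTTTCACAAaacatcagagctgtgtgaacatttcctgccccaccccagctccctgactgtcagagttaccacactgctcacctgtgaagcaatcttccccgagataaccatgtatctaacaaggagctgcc
Ngp: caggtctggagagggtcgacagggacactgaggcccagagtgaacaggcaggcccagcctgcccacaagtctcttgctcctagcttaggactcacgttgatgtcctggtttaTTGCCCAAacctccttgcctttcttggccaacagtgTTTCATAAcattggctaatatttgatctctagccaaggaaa
Retnlg: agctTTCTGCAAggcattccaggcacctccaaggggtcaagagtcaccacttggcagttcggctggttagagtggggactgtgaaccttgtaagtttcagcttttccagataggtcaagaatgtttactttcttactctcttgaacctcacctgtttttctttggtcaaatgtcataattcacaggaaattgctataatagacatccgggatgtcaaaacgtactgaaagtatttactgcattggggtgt

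Over the 250 bases before the RefSeq start, the C/EBP letters were found ahead of 4 of the 5 genes, all but Camp, against 36.8% of 32851 promoters in the table. Of those 250 bases, 161 lie within the GENCODE gene for Camp, 93 for S100a8 and 61 for Ngp. The Camp stretch, with 89 bases ahead of both starts and no match, is not printed. The PU.1 letters were found ahead of S100a8 only, against 23.3% of promoters. A TATAAA match, 30 to 25 bases before the RefSeq start, was also found ahead of S100a8 only, against 12.4% of promoters, and it lies past the printed stretch. A further PU.1 match of S100a8, 36 to 31 bases before the start, adjoins it. These are letter matches and not measured binding.

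Calprotectin RNA was nearly absent from the disease plus metformin library and plentiful in the other 3. Levels are in CPM, the UMIs of a gene per 1000000 UMIs of the cells counted. S100a8 stood at 2.25 CPM in disease plus metformin, 333 in disease, 158 in metformin and 390.4 in healthy. S100a9, its partner subunit, stood at 0.833, 451, 186 and 497 CPM in the same order of libraries. The disease and healthy libraries were the highest for both genes, and metformin alone lay between them and the combined library.

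Camp and Ngp followed the same order of libraries. Retnlg was highest in disease and was also near 0 with metformin alone. Camp stood at 0.0833 CPM in disease plus metformin (1 UMI), 96.1 in disease, 25.2 in metformin and 107 in healthy. Ngp had no UMI in disease plus metformin and stood at 85.3 CPM in disease, 28.8 in metformin and 122 in healthy. Retnlg stood at 0.0833 CPM in disease plus metformin (1 UMI), 14.6 in disease, 0.256 in metformin (5 UMIs) and 3.87 in healthy (42 UMIs).

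**Figure D1:**
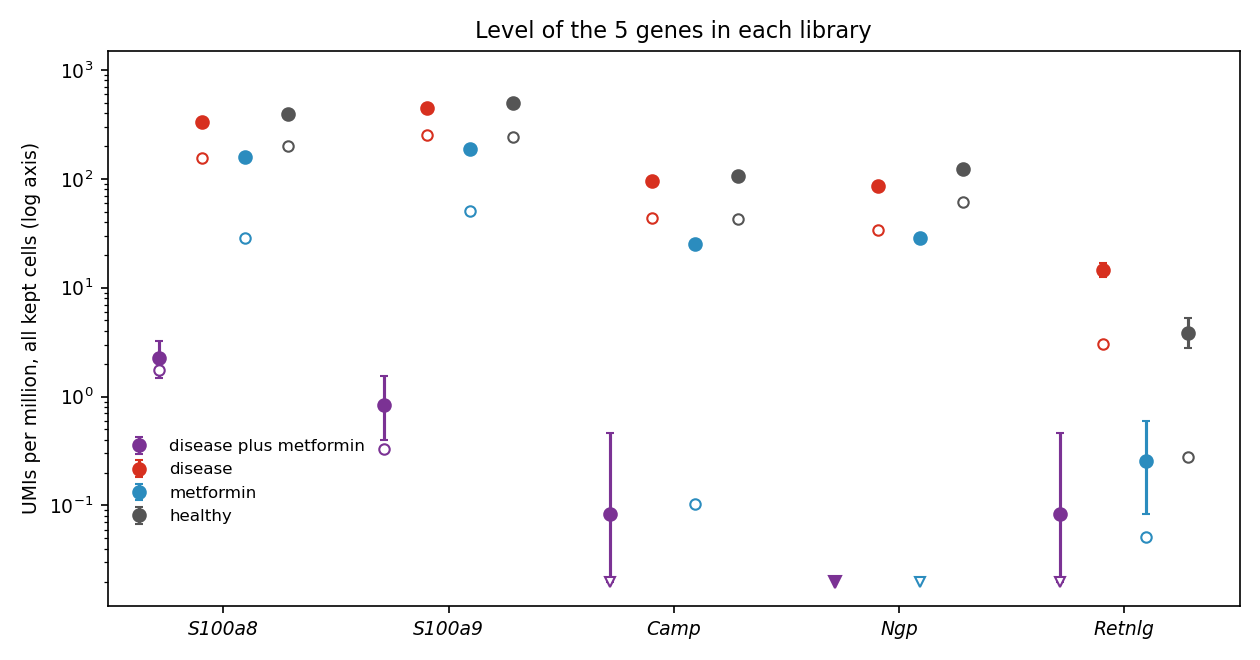
Level of each gene in CPM over all kept cells (log axis), disease plus metformin in purple, disease in red, metformin in blue and healthy in grey. Filled symbols are the levels with 95% counting intervals and open symbols the level without the barcode richest in that gene, triangles standing for 0; S100a8 reads 2.25 in disease plus metformin and 333 in disease, and in metformin it drops to 28.5 without 1 barcode.

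Set against disease alone, the disease plus metformin library was lower for all 5 genes. The log2 ratio of CPM was -7.21 for S100a8 (-7.81 to -6.67), -9.08 for S100a9 (-10.14 to -8.20), -10.17 for Camp (-15.48 to -7.69) and -7.45 for Retnlg (-12.77 to -4.96). Ngp, at 0, was at least 341-fold lower, counting 3 UMIs in place of 0. All 5 were thus at least 2-fold lower, where 12.1% of the 14385 genes with at least 20 UMIs over both libraries were and 3.27% were as much higher.

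Set against metformin alone, the disease plus metformin library was lower again. The log2 ratio was -6.13 for S100a8 (-6.73 to -5.59), -7.80 for S100a9 (-8.86 to -6.92) and -8.24 for Camp (-13.55 to -5.76), and Ngp was at least 115-fold lower. Retnlg, with 1 UMI against 5, had a log2 ratio of -1.62 with an interval (-7.19 to 1.54) that holds 0. The 4 genes with 20 UMIs or more were all at least 2-fold lower, as were 7.90% of 14678 genes, with 3.92% as much higher.

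In summed levels, 4 of the genes were less than 2-fold apart between disease alone and healthy. The log2 ratio was -0.23 for S100a8 (-0.29 to -0.17), -0.14 for S100a9 (-0.19 to -0.09), -0.15 for Camp (-0.27 to -0.03) and -0.52 for Ngp (-0.64 to -0.40). With every cell weighted equally, whatever its depth, the direction turned for S100a8 (0.66), S100a9 (1.02, past 2-fold) and Camp (0.36), and Ngp was at -0.07. Retnlg was higher by 1.92 (1.43 to 2.44), and 147 of its 186 UMIs in disease came from 1 barcode. That made 1 of 5 genes at least 2-fold higher, where 7.28% of genes were, and 0 of 5 lower, where 2.92% were.

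Metformin alone was lower than healthy for all 5. The log2 ratio was -1.31 for S100a8 (-1.38 to -1.24), -1.42 for S100a9 (-1.48 to -1.36), -2.08 for Camp (-2.23 to -1.93), -2.09 for Ngp (-2.23 to -1.94) and -3.91 for Retnlg (-5.61 to -2.58). All 5 were past the 2-fold mark, where 3.91% of 14790 genes were lower by as much and 4.38% higher. The comparisons share libraries, so their values are not independent of each other.

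These levels rested on few cells. At least 1 S100a8 UMI was found in 13 cells of disease plus metformin, 21 of disease, 28 of metformin and 16 of healthy, and at least 1 S100a9 UMI in 4, 30, 13 and 10. Camp was found in 1, 4, 3 and 2 cells, Ngp in 0, 3, 1 and 2, and Retnlg in 1, 8, 2 and 3. The single richest barcode held 53.7% of the S100a8 UMIs of the disease library, 81.9% in metformin and 49.0% in healthy. For Camp it held 54.4%, 99.6% and 59.9% in those 3 libraries, and 2 barcodes together held 99.8% or more in each. The number of cells with S100a8 therefore did not follow the level: metformin had the most cells and the lowest level of these 3.

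Nearly all of this RNA lay in neutrophil-like cells. Clusters were made with the 5 genes left out, and 2 of them were named neutrophil-like from 29 other neutrophil genes. Their 23 cells held 98.1% of all calprotectin UMIs (S100a8 plus S100a9), and 99.9% of all Camp, Ngp and Retnlg UMIs. The 3751 keratinocyte-like cells held 1.86% of the calprotectin UMIs, and the other 118 leukocytes held 2 UMIs. Neutrophil-like cells held 97.4% of the calprotectin UMIs in disease, 99.1% in metformin and 98.3% in healthy. The disease plus metformin library, with 37 calprotectin UMIs in all, had none in neutrophil-like cells and 81.1% in keratinocyte-like cells.

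**Figure D2:**
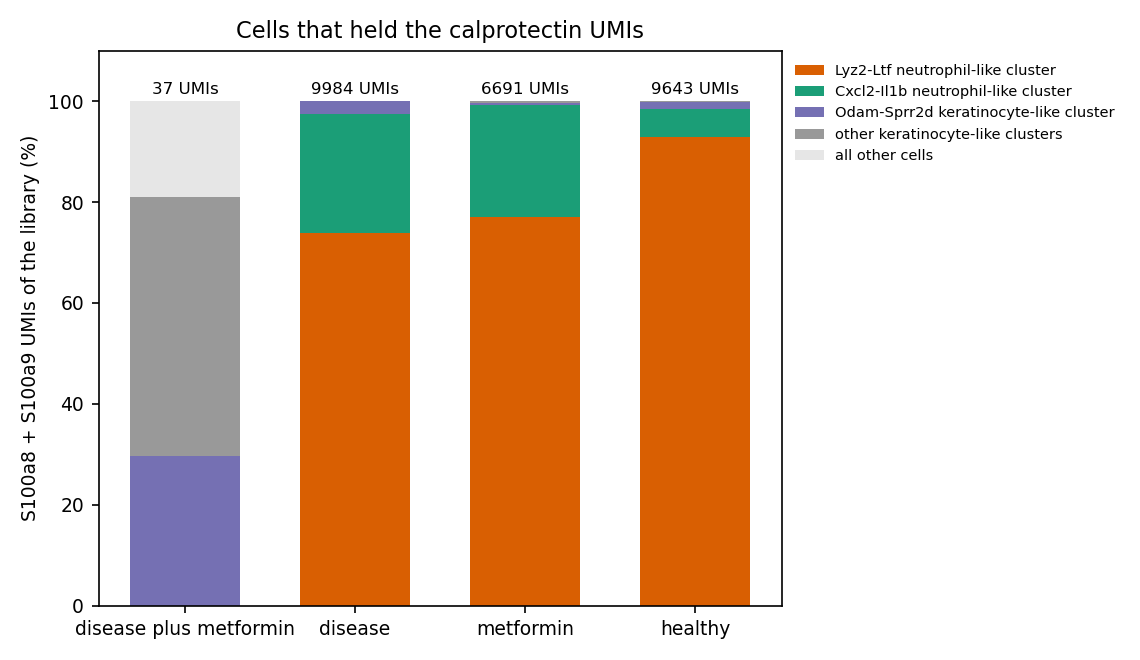
Share of the calprotectin UMIs (S100a8 plus S100a9) of each library held by each group of cells, with the UMI total above each bar. The Lyz2-Ltf neutrophil-like cluster holds 73.9% in disease, 77.1% in metformin and 92.9% in healthy, and nothing in disease plus metformin.

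The neutrophil-like clusters parted the granule genes. One, with Lyz2, Lcn2, Chil3 and Ltf among its leading genes, had 6 cells and held 2870 of 2875 Camp UMIs and 2976 of 2977 Ngp UMIs. The other, led by Cxcl2, Il1b, Srgn and Ccl4, had 17 cells, no Camp and no Ngp UMI, and held 98.3% of the Retnlg UMIs. Calprotectin was in both.

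Giving cells of these clusters one by one was a choice made after the values were seen. The Lyz2-Ltf cluster had 1 cell from disease plus metformin, 2 from disease, 1 from metformin and 2 from healthy. S100a8 had 2277 and 1015 UMIs in the disease cells, 2517 in the metformin cell and 1852 and 2077 in the healthy cells. S100a9 had 2516 and 1568 UMIs in disease, 2640 in metformin and 2769 and 2256 in healthy. In each of these 5 cells calprotectin alone was between 29.0% and 37.4% of all UMIs, and these cells held 81.5% of the calprotectin UMIs of the series.

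The same 5 cells held the specific granule cargo. Camp had 665 and 556 UMIs in the disease cells, 490 in the metformin cell and 694 and 465 in the healthy cells. Ngp had 659 and 426 UMIs in disease, 562 in metformin and 662 and 667 in healthy. Retnlg had 1 UMI in 1 healthy cell and none in the other 4. In counts not scaled to the depth of a cell, the metformin cell had the most S100a8 UMIs, and for S100a9 and Camp the libraries overlapped. Relative to all UMIs of the cells, pooled by library, Camp stood at 59347 CPM in disease (56064 to 62771). It stood at 35556 in metformin (32477 to 38848) and 38993 in healthy (36781 to 41305). On the same scale Ngp stood at 52736 CPM in disease (49645 to 55970), 40781 in metformin (37478 to 44296) and 44713 in healthy (42341 to 47183). Disease was thus the highest for both, although its cells held fewer Ngp UMIs than the healthy cells. They were large barcodes, of 6969 to 15959 UMIs, with 9 to 15 of the 29 neutrophil genes each.

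Other cell types marked 1 of them: the metformin cell carried 231 UMIs of gland genes and 34 of keratinocyte genes among its 13781 UMIs, against 8 or fewer and 1 or fewer in the other 4. Classed by its own markers alone, that cell was keratinocyte-like, and keratinocyte-like cells then held 21.3% of the calprotectin UMIs of the series. The disease plus metformin cell of the cluster had 884 UMIs, no UMI of any of the 5 genes and none of the 29 neutrophil genes, and by its own markers was B or plasma-like. The name of this cluster depended on how cells were grouped: with the 5 genes used in clustering, its cells joined a B or plasma-like or an unnamed leukocyte cluster, and neutrophil-like cells then held 16.5% of the calprotectin UMIs.

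The Cxcl2-Il1b cluster had 0 of 1657 cells in disease plus metformin (0%, 0 to 0.222) and 10 cells in disease (0.591%, 0.284 to 1.08). It had 5 in metformin (0.202%, 0.0656 to 0.470) and 2 in healthy (0.153%, 0.0185 to 0.552). S100a8 ran from 6 to 241 UMIs in the 10 disease cells with a median of 60.5, was 196, 104, 65, 73 and 70 in the metformin cells, and 224 and 0 in the healthy cells. S100a9 ran from 14 to 425 in disease with a median of 145, was 304, 259, 149, 129 and 127 in metformin, and 270 and 35 in healthy. The cells of the 3 libraries overlapped for both subunits.

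Per UMI of the cluster, calprotectin differed less between libraries than the number of cells did. It stood at 123400 CPM in disease, 83764 in metformin and 105023 in healthy, a log2 ratio of 0.23 (0.10 to 0.37) for disease over healthy and -0.33 (-0.47 to -0.18) for metformin over healthy. S100a9 was higher in disease than in healthy by 0.44 (0.26 to 0.62) and the interval of S100a8 held 0 (-0.11, -0.32 to 0.12). The healthy value rests on 2 cells, at 494 and 35 calprotectin UMIs.

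Retnlg was uneven within that cluster. It had 147, 20, 7, 4, 3 and 3 UMIs in 6 of the 10 disease cells and none in the rest. It had 4 and 1 UMIs in 2 of the 5 metformin cells and none in the rest, and 39 and 2 in the healthy cells. The richest Retnlg cell was also the richest in calprotectin of this cluster in disease, with 666 UMIs, and in healthy, with 494, and in metformin it was not. Its level in the cluster was 9654 CPM in disease, 284 in metformin and 8140 in healthy, a log2 ratio of -4.84 (-6.54 to -3.50) for metformin over healthy.

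**Figure D3:**
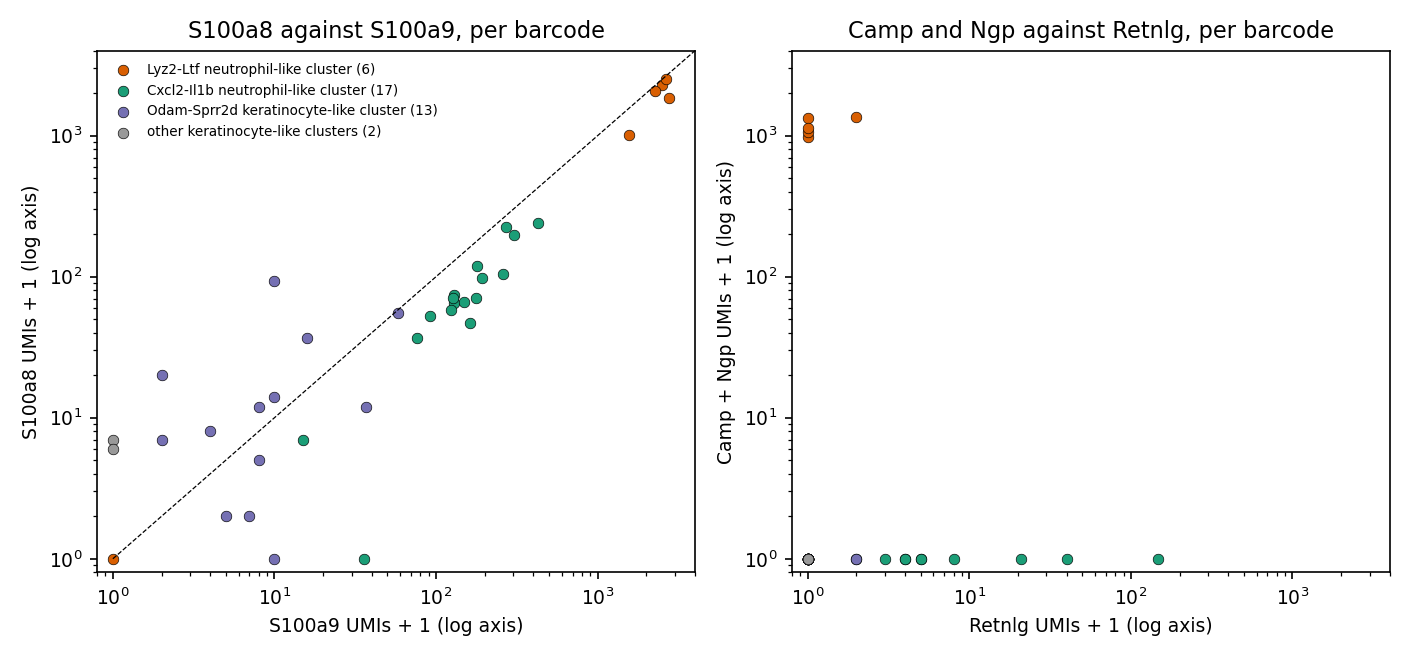
UMIs per barcode plus 1 (log axes), coloured by group of cells, for the 23 neutrophil-like cells and the 15 keratinocyte-like cells with at least 5 calprotectin UMIs: S100a8 against S100a9 on the left with a dashed line of equality, and Camp plus Ngp against Retnlg on the right. Every neutrophil-like cell with calprotectin lies below the line, and no cell is high on both axes of the right panel.

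Camp and Ngp went together and apart from Retnlg. All 5 cells with at least 3 Camp UMIs had at least 3 Ngp UMIs, and none of them was among the 8 cells with at least 3 Retnlg UMIs. All 8 of those Retnlg cells had at least 3 S100a9 UMIs. Across the 32 clusters the Pearson r of log2(CPM + 1) was 0.99 between Camp and Ngp, 0.96 between S100a8 and S100a9 and 0.26 between Camp and Retnlg, as a description over clusters that share libraries and depth. By the same measure over 12985 genes, the genes most like S100a8 were Wfdc21 (0.926), Slc40a1 and Cstdc5. Those most like S100a9 were Wfdc21 (0.948), Slc40a1 and Hdc, and those most like Camp were Tmem45a2 (0.811), Wfdc21 and Chil3. Ngp was most like Wfdc21 (0.810), Tmem45a2 and Chil3, and Retnlg most like Cxcr2 (0.947), Hdc and Acod1.

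The other granule genes differed between the same clusters, and those named here beyond the 4 of a list with most UMIs were chosen after their values were seen. All 13 specific granule genes on the list had a UMI in the Lyz2-Ltf cluster, with Lcn2, an iron-chelator binding protein, at 14624 CPM, Lyz2 (lysozyme) at 13885, Chil3 at 8313 and Ltf (lactoferrin) at 6742. In the Cxcl2-Il1b cluster these stood at 239.7, 1294, 0 and 24.0 CPM. Mmp8, a collagenase on the same list, ran the other way, at 46.2 CPM in the Lyz2-Ltf cluster and 239.7 in the Cxcl2-Il1b cluster, and Ceacam10 was about level, at 30.8 and 24.0 CPM on 2 and 1 UMIs. Of the azurophil list, 4 of 7 had a UMI in the Lyz2-Ltf cluster, summing to 1355 CPM, and 1 of 7 in the Cxcl2-Il1b cluster, at 24.0 CPM. Serpinb1a, an inhibitor of neutrophil proteases, made up most of this with 1108 CPM in the Lyz2-Ltf cluster and 24.0 in the other. Serpinb1a was not limited to neutrophil-like cells, with 544 UMIs in the keratinocyte-like clusters other than Odam-Sprr2d, at 21.8 CPM. Ms4a3 had 216 CPM in the Lyz2-Ltf cluster and none in the other, Prtn3 and Ctsg had 1 UMI each there, and Elane and Mpo had none in either cluster.

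Genes of mature, migrating neutrophils stood the other way. Cxcr2, the receptor for neutrophil chemokines, had 46.2 CPM in the Lyz2-Ltf cluster and 1079 in the Cxcl2-Il1b cluster. Csf3r, the receptor for the granulocyte growth factor, had 30.8 and 1318, Trem1 had 0 and 3380, and Clec4d had 0 and 3260 in the same order. Exceptions on the same list were Ly6g, at 462 and 47.9, and Itgam, at 354 and 192. These differences are no result of their own, since the clusters were made from such genes.

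**Figure D4:**
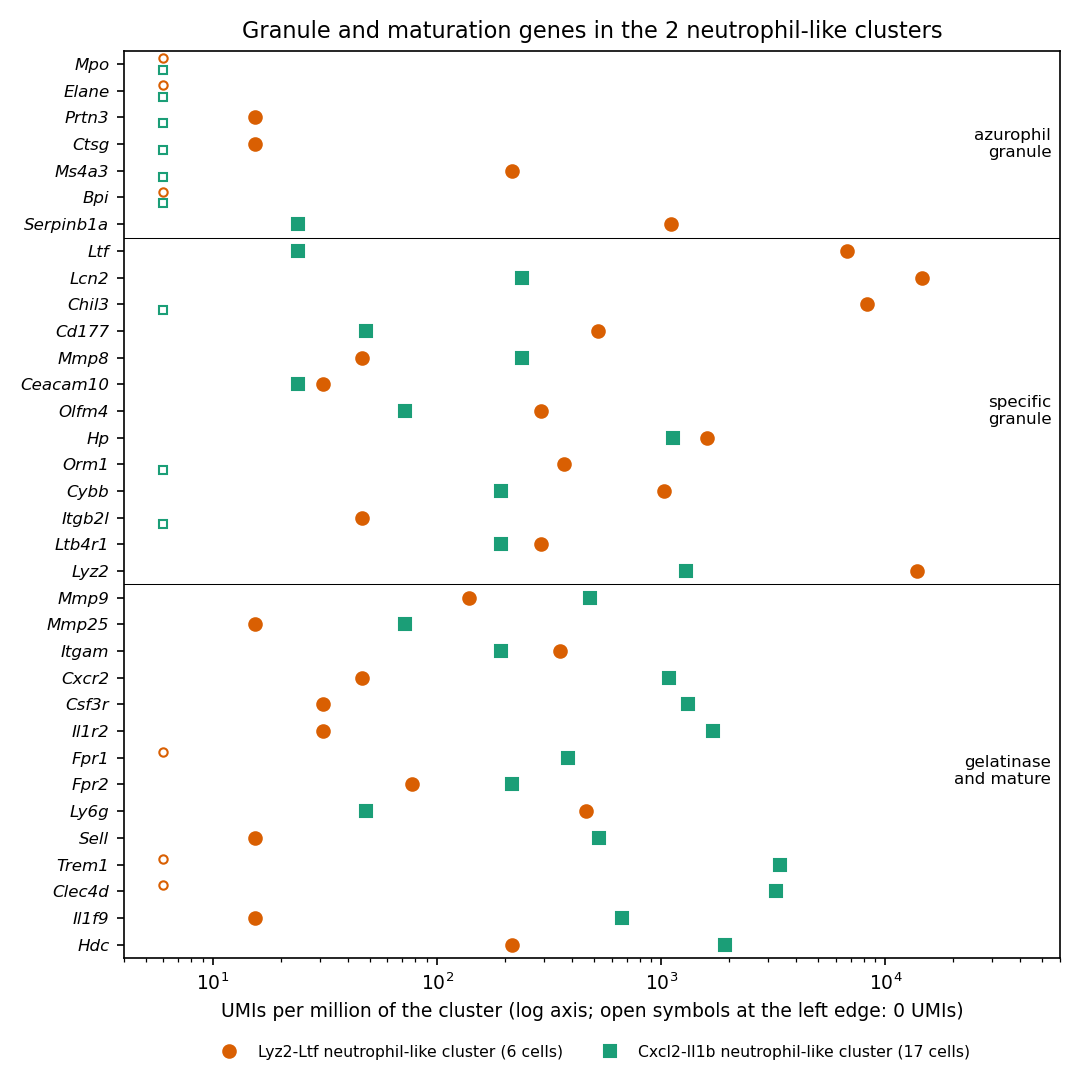
CPM (log axis) of the azurophil, specific and gelatinase or mature neutrophil genes in the Lyz2-Ltf cluster (orange circles) and the Cxcl2-Il1b cluster (green squares), open symbols at the left edge standing for 0. Specific granule genes such as Ltf lie to the right for the circles, and Cxcr2, Csf3r, Trem1 and Clec4d for the squares.

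Leaving out the Lyz2-Ltf cluster, an alternative chosen after seeing the data, changed the order of the libraries. Calprotectin then stood at 3.08 CPM in disease plus metformin, 205 in disease, 78.7 in metformin and 63.6 in healthy. Disease was then higher than healthy by a log2 ratio of 1.69 (1.57 to 1.81), where with all cells it was -0.18 (-0.22 to -0.14). Metformin over healthy turned to 0.31 (0.18 to 0.44), where with all cells it was -1.37 (-1.42 to -1.33). The disease plus metformin library stayed lowest, at -6.06 (-6.57 to -5.59) over disease. The cells left out numbered 1 in disease plus metformin, 2 in disease, 1 in metformin and 2 in healthy. Retnlg had 1 of its 234 UMIs in that cluster, so leaving it out bears on the other genes only.

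Over whole libraries, genes of gelatinase granules and mature neutrophils were low in disease plus metformin. Of the 14 genes listed, 10 had enough UMIs in disease plus metformin against disease, and all 10 were at least 2-fold lower, where 12.1% of all genes were, with a median log2 ratio of -2.14 beside -0.24 over all genes. Of 11 with enough UMIs in disease against healthy, 9 were at least 2-fold higher, where 7.28% of all genes were (median 1.19, beside 0.15). Against metformin, 7 of 9 were lower in disease plus metformin, where 7.90% of all genes were (median -2.19, beside -0.01). In metformin against healthy 2 of 9 were higher, where 4.38% of all genes were (median 0.64, beside -0.06). Il1r2, a decoy receptor for interleukin 1, stood at 1.92 CPM in disease plus metformin, 6.29 in disease, 2.77 in metformin and 1.75 in healthy. Clec4d stood at 0.917, 5.26, 4.21 and 2.30, Trem1 at 1.33, 4.01, 6.10 and 1.93, and Il1f9 at 3.75, 8.72, 9.13 and 7.27. Part of this RNA lay outside neutrophil-like cells. Il1f9 had 28 UMIs in the Cxcl2-Il1b cluster and 319 in the keratinocyte-like clusters other than Odam-Sprr2d, and Il1r2 had 71 and 53. Trem1 had 141 UMIs in the Cxcl2-Il1b cluster and 35 in gland-like cells, and Clec4d had 136 and 0.

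The specific granule list was mixed over whole libraries. Of 9 measured genes, 2 were at least 2-fold lower and 1 higher in disease plus metformin against disease, where 12.1% of all genes were lower and 3.27% higher (median -0.33, beside -0.24). Olfm4 stood at 1516 CPM in disease plus metformin, 248 in disease, 446 in metformin and 240.2 in healthy, and had 1464 in gland-like cells. Ltf stood at 861, 799, 351 and 289.8. Ltf had 28.1 CPM in gland-like cells, and was also the leading gene of an unnamed cluster of 60 cells with gland markers.

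The receptors and partners of calprotectin were measured in the same cells. Of 6 with enough UMIs, 1 was at least 2-fold lower in disease plus metformin than in disease and none higher (median 0.02), near the 12.1% and 3.27% of all genes. Cd14, the co-receptor of the Toll-like receptor Tlr4, had 17.7 CPM in disease plus metformin, 33.2 in disease, 35.6 in metformin and 12.8 in healthy, and 15365 in the Cxcl2-Il1b cluster. Ager, the gene of the receptor RAGE, had no UMI in either neutrophil-like cluster. Among 12 other S100 genes measured in that comparison 1 was higher and 1 lower, beside the same shares of all genes, with a median of -0.31, beside -0.24 over all genes.

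Marker sums over whole libraries differed less than the 5 genes did. The 29 neutrophil genes summed to 134 CPM in disease plus metformin, 201 in disease, 162 in metformin and 161 in healthy. Of them 8, 3, 2 and 3 were at 0, Ly6g, Mmp8, Mmp9 and Wfdc21 among the 8. In disease plus metformin the sum, 1604 UMIs, lay wholly outside neutrophil-like cells, since the 1 such cell had none of the 29 genes. The sums therefore hold RNA of other cells and do not measure neutrophil content. Leukocyte clusters as a whole were 1.93% of cells in disease plus metformin (1.32 to 2.72), 3.13% in disease (2.35 to 4.07), 1.25% in metformin (0.852 to 1.77) and 1.91% in healthy (1.24 to 2.81). Red cell genes summed to 8995, 19290, 33332 and 10039 CPM, and the part of blood left in the tissue in these results was not tested.

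In keratinocyte-like cells calprotectin RNA was low, and most of it lay in 1 small cluster. In keratinocyte-like cells it stood at 8.07 CPM in disease plus metformin, 39.0 in disease, 4.93 in metformin and 33.3 in healthy. Of its 490 UMIs there, 435 lay in 82 cells of a cluster led by BC037156, Sprr2d, Odam, Krt6b and Krt16, and 55 in the other 3669 cells. Odam encodes a protein of the epithelium that seals the gum to the tooth, Krt6b and Krt16 are keratins of wounded or rapidly renewing epithelium, and Sprr2d belongs to the cornified envelope. Camp and Ngp had no UMI in this cluster, and Retnlg had 1.

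The Odam-Sprr2d cluster had 14 cells in disease plus metformin, 29 in disease, 30 in metformin and 9 in healthy. Its calprotectin stood at 469.9 CPM in disease plus metformin (11 UMIs), 2524 in disease (244 UMIs), 405 in metformin (33 UMIs) and 2107 in healthy (147 UMIs). Cells with any calprotectin UMI numbered 4, 10, 4 and 6. The richest cell of the cluster held 7 calprotectin UMIs in disease plus metformin, 20 in metformin and 111 in healthy, and in disease it held 92 S100a8 and 9 S100a9 UMIs. Both libraries with metformin were the low ones, and in each library 1 cell carried a large part of the sum.

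Subunit balance differed between the sources. In every one of the 22 neutrophil-like cells with calprotectin, S100a9 outnumbered S100a8. The ratio of summed S100a8 to S100a9 was 0.806 in disease, 0.953 in metformin and 0.782 in healthy for the Lyz2-Ltf cells, and 0.504, 0.525 and 0.734 for the Cxcl2-Il1b cells. In the Odam-Sprr2d cluster it was 0.222 in disease plus metformin (11 UMIs), 1.80 in disease, 3.71 in metformin and 1.13 in healthy, and 7 of its 13 cells with at least 5 calprotectin UMIs had more S100a8. The ratios of this cluster rested on single cells. The richest cell held 92 of its 157 S100a8 UMIs in disease, 19 of 26 in metformin and 54 of 78 in healthy. The same cells held 9, 1 and 57 S100a9 UMIs. That richest disease cell had no UMI of the 29 neutrophil genes, but it was among the disease cells with a UMI of a leukocyte gene, left out in a check below. Another disease cell of the cluster, with 11 S100a8 and 36 S100a9 UMIs, had 3 of the 29 genes and 1 Retnlg UMI. In the other keratinocyte-like cells S100a8 had 46 UMIs and S100a9 had 9. The difference between sources was not tested.

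The share of cells with any calprotectin UMI was set beside classes that should lack it. Calprotectin was found in 1.04% of the other keratinocyte-like cells (38 of 3669, median depth 1578 UMIs) and in 29.3% of the Odam-Sprr2d cells (24 of 82, median depth 1786). Among classes that should lack it, gland-like cells had it in 0.363% (5 of 1379, median depth 8416). Fibroblast-like cells had it in 1.48% (2 of 135, median depth 6992) and vascular endothelial-like cells in 0.407% (1 of 246, median depth 1390). In level, the other keratinocyte-like cells, at 2.20 CPM (1.66 to 2.87), stood above the gland-like cells, at 0.238 CPM (0.0772 to 0.555). They did not stand above the fibroblast-like cells, at 3.06 CPM (0.630 to 8.93) on 3 UMIs. Vascular endothelial-like cells stood at 1.47 CPM on 1 UMI, with a wide interval (0.0373 to 8.20). In disease plus metformin the other keratinocyte-like cells had 19 S100a8 UMIs and no S100a9 UMI, and the richest of them held 6 S100a8 UMIs among 585 UMIs in all. That barcode had 50 UMIs of gland genes and 11 of keratinocyte genes, and by its own markers was gland-like. The next richest, with 5 S100a8 UMIs, was also gland-like by its own markers.

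Compared between libraries, keratinocyte-like calprotectin was lower in disease plus metformin than in disease, with a log2 ratio of -2.27 (-2.87 to -1.72), with both subunits at least 2-fold lower where 4.03% of genes were and 1.66% as much higher. Metformin was lower than healthy, at -2.76 (-3.24 to -2.29), again with both subunits, where 5.40% of genes were and 2.42% as much higher. Disease plus metformin over metformin was 0.71 (0.01 to 1.39), and disease over healthy was 0.23 (-0.07 to 0.52). S100a8 alone had enough UMIs in the comparison with metformin and was not past 2-fold in either direction, where 2.23% of genes were higher and 3.07% lower. In disease over healthy 0 of 2 were past 2-fold, where 2.51% were higher and 2.08% lower.

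Those ratios moved with a few cells. Without the Odam-Sprr2d cluster, an alternative chosen after seeing the data, disease plus metformin was higher than disease by 1.87 (0.65 to 3.20), on 19 against 9 UMIs. Of those 19, 6 and 5 lay in barcodes that were gland-like by their own markers. Keratinocyte-like cells without a UMI of Ptprc, Tyrobp, Csf3r, Srgn or Laptm5, which are leukocyte genes, stood at 6.22 CPM in disease plus metformin, 16.2 in disease, 5.11 in metformin and 34.2 in healthy. This left out 4 of 1079 disease cells, the richest in calprotectin among them, and turned disease over healthy to -1.07 (-1.44 to -0.71). Without the richest cell of each library, disease over healthy was 1.28 (0.79 to 1.79). Keratinocyte-like barcodes without a mitochondrial UMI made up 58.3% in disease plus metformin, 31.0% in disease, 47.7% in metformin and 45.9% in healthy, and their part in the result was not tested.

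The wound keratins and epithelial alarmins, a list of 17 genes of which 15 were in the files, include keratins that lead the Odam-Sprr2d cluster. Over all cells 4 of 14 measured were at least 2-fold lower in disease plus metformin than in disease and 0 higher (median -0.75, beside -0.24 over all genes), where 12.1% of all genes were lower. In disease against healthy 3 were higher and 0 lower (median 0.45, beside 0.15), where 7.28% of all genes were higher. Metformin against healthy had 5 higher and 1 lower (median 0.33, beside -0.06), where 4.38% of all genes were higher and 3.91% lower. Disease plus metformin against metformin had 1 higher and 4 lower (median -0.71, beside -0.01), where 3.92% of all genes were higher and 7.90% lower. Krt6a stood at 616 CPM in disease plus metformin, 681 in disease, 1050 in metformin and 487 in healthy, and Krt17 at 334, 540.0, 455 and 108 CPM. Both were lowest in healthy, and Krt6a was highest in metformin. Krt16 stood at 90.8 CPM in disease plus metformin, 159 in disease, 143 in metformin and 107 in healthy. Krt6b stood at 64.0, 123, 115 and 118. In keratinocyte-like cells 2 of 11 of the list were lower and 1 higher in disease plus metformin than in disease, with a median of -0.20, where 4.03% of all genes in these cells were lower and 1.66% higher.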

How the data were processed

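The deposited values are whole-number UMI counts per gene and cell barcode. Per the submitters' processing notes they came from Cell Ranger 7.0.1 after bcl2fastq on mm10, and the lowest barcode held 500 UMIs. Cells had to show 200 genes or more, and no more than 20% of their UMIs could be mitochondrial; 7134 passed, from 1893, 1972, 2814 and 1616 deposited in disease plus metformin, disease, metformin and healthy. Their UMIs summed to 12000069, 12727031, 19493395 and 10863807. Cells of all libraries were clustered together with scanpy 1.11.5 (2000 variable genes, 30 components, 15 neighbours, resolution 1), leukocytes again with 10 components, and the 5 genes were left out of clustering and naming. Clusters were named from 16 marker lists. A level is in CPM, UMIs per 1000000 of the cells named, with an exact Poisson interval, and ratios have conditional exact binomial intervals; shares have Clopper-Pearson intervals. Genes counted against the 2-fold mark had at least 20 UMIs over both libraries, and 3 UMIs stood in place of 0 for a bound. Only the ratios and their intervals were tested on simulated data, with the counts of each gene drawn independently. That test did not cover the naming of clusters, nor genes whose UMIs lie in few cells. The rule for named genes was the 5, at most 4 of each list with most UMIs, and the 3 most alike to each of the 5 among genes with at least 50 UMIs; Lcn2, Mmp8, Elane, Ctsg, Csf3r, Ly6g, Itgam and Ager were given values outside it, after these were seen. The genes and lists were chosen with earlier results of these data known. Replicates, and therefore p-values, were not to be had. Python 3.11.15, numpy 2.4.6 and scipy 1.17.1 were used.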

Additional observations from a re-analysis of the deposited data

Results flagged for a closer look

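Retnlg stood out because disease moved it in opposite directions with and without metformin. With metformin, disease over no disease gave a log2 ratio of -1.62 (1 UMI in disease plus metformin against 5 in metformin). Without metformin, disease over healthy gave 1.92 (186 UMIs against 42). The difference between these effects was not tested, each rests on 1 library a side, and the interval of the first, -7.19 to 1.54, holds 0.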

How the results depend on the processing

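No paired analysis was possible because each group is 1 library, and for the same reason no replicate could be left out. Ratios below are log2 and the cause of each change was not tested. For calprotectin over all cells, disease plus metformin over disease was -8.88 under the stricter cell filter (at least 500 genes, at most 10% mitochondrial UMIs), -5.81 with every cell weighted equally and -7.35 without the richest barcode of each library. Disease plus metformin over metformin was -7.67, -3.99 and -4.98 under the same settings. Disease over healthy was -0.13 with no cell filter, 0.87 with equal weights and -0.33 with size factors. Metformin over healthy was -0.95 with equal weights, -1.31 with size factors and -2.56 without the richest barcode. For the sum of Camp, Ngp and Retnlg, disease plus metformin over metformin was -6.29 with equal weights and -2.11 without the richest barcode. Disease over healthy was 0.41 with equal weights and -0.40 with size factors, and metformin over healthy was -8.23 without the richest barcode.

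Alternatives chosen after seeing the data left out clusters. Without the Lyz2-Ltf cluster, in the order disease plus metformin over disease, disease plus metformin over metformin, disease over healthy and metformin over healthy, calprotectin gave -6.06, -4.67, 1.69 and 0.31, and the granule sum gave -6.48, -1.11, 1.97 and -3.40. S100a9 alone turned to 0.53 for metformin over healthy. Without both neutrophil-like clusters calprotectin gave -2.71, 0.05, 0.45 and -2.31 in that order, S100a9 turned to 0.70 for disease plus metformin over metformin, and the granule sum gave -1.24 for disease plus metformin over disease, on 2 against 5 UMIs. Disease over healthy for that sum, with 5 UMIs against 0, is a bound of at least 0.51, counting 3 UMIs in place of 0.

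In keratinocyte-like cells, disease plus metformin over disease was -3.20 under the stricter filter, -0.58 with equal weights, -1.38 in barcodes without leukocyte genes and 1.87 without the Odam-Sprr2d cluster, where S100a8 alone gave 4.04 on 19 against 2 UMIs. Disease plus metformin over metformin was -0.10 under the stricter filter, 2.63 with equal weights and 1.55 without that cluster. Disease over healthy was 1.08 with equal weights, 1.28 without the richest barcode, -1.07 without leukocyte genes and -0.47 without the cluster. Metformin over healthy was -2.13 with equal weights, -1.69 without the richest barcode and -0.16 without the cluster.

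With the 5 genes used in clustering, neutrophil-like cells held 16.5% of the calprotectin UMIs and 3.78% of the granule sum, and numbered 0 in disease plus metformin and 2 in healthy. With each cell classed by its own markers they held 77.4% and 82.5%, keratinocyte-like cells held 21.3% and 17.3%, and disease plus metformin had 0 neutrophil-like cells. Cells with at least 3 calprotectin UMIs numbered 4, 19, 9 and 8 in disease plus metformin, disease, metformin and healthy, and with at least 10 they numbered 0, 17, 7 and 7. Thinned to 500 UMIs a cell, the expected numbers with any were 7.49, 22.9, 11.7 and 10.0. For the granule sum the numbers were 0, 8, 2 and 3 at 3 UMIs, 0, 4, 1 and 3 at 10 UMIs, and 0.340, 7.81, 2.42 and 3.41 after thinning.

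The share of genes past 2-fold depended on the count minimum. With at least 1 UMI it was 10.9% higher in disease plus metformin over disease, 13.9% higher in disease plus metformin over metformin, 11.1% lower and 12.9% higher in disease over healthy, and 14.1% lower in metformin over healthy. With at least 100 UMIs the lower and higher shares were 7.44% and 2.07% in disease plus metformin over disease, 4.05% and 2.45% in disease plus metformin over metformin, 1.08% and 3.56% in disease over healthy, and 1.59% and 1.90% in metformin over healthy. Of the single-gene ratios past 2-fold, 16 of 16 kept their direction with no cell filter and with the stricter filter, and all of those were still past 2-fold. Of 14 that could be formed, 14 kept their direction with equal weights, with size factors and without the richest barcode, and 12, 14 and 13 of them were still past 2-fold in that order. Without the Lyz2-Ltf cluster 9 of 10 kept their direction and 8 were still past 2-fold, and without both neutrophil-like clusters 5 of 6 did and 4 were.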
